A study of Mus musculus with 2 samples.

Results

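The RNA-rich elongating spermatids were the barcodes in which the transcripts of Prm1, Prm2, Tnp1 and Tnp2 together took at least 10% of the unique molecular identifiers (UMIs) and which held at least 16000 UMIs. They were thus chosen by the summed level of these 4 genes and by the UMI total. They numbered 1967 of 28245 barcodes (6.96%, Clopper-Pearson 95% interval 6.67 to 7.27%) and held 14.7% of all UMIs. The table joins a library of total testicular cells from adult miR-202-/- mice, which lack a microRNA of the gonads, with one from adult wild-type (WT) mice, 1 library for each genotype, both of the strain labelled C57BL/CJ;ICR. Cells were freed by enzymatic digestion, debris was removed by flow sorting, and 3′ ends of polyadenylated RNA were counted on a droplet platform. The labels do not say how many animals were pooled. Barcode names end in suffix 1 or 2, and no label ties a suffix to a genotype. No value below belongs to a known genotype, no genotype comparison was made and no test was run. The suffixes are not replicates. Wherever a pair of values is given, the value under suffix 1 stands before that under suffix 2. Under suffix 1 the members were 1022 of 12935 barcodes (7.90%), and under suffix 2 they were 945 of 15310 (6.17%).

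After meiosis a round spermatid builds the acrosome and the flagellum, then elongates, condenses its nucleus and sheds most of its cytoplasm. During condensation histones give way first to the transition proteins TNP1 and TNP2 and then to the protamines PRM1 and PRM2. Transcription stops as the chromatin compacts, so that many late proteins are made from messenger RNA stored earlier, among them the protamines themselves.

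The given markers of these cells were Tnp1, Tnp2, H2al3 (an X-linked H2A-like histone) and Prss58 (a serine protease). The 120 bases before the annotated starts of the gate genes and of H2al3 and Prss58, from RefSeq on GRCm38.p6, are shown because the motif counts given later refer to them. All are read along the gene. Capitals mark TGANNTCA, a family of letters that includes the cAMP response element TGACGTCA, or TATAAA, on either strand.
Prm1, chr16:10796824-10796943, minus strand: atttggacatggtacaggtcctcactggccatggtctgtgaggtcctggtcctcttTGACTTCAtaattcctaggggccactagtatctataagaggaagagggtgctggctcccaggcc
Prm2, chr16:10792106-10792225, minus strand: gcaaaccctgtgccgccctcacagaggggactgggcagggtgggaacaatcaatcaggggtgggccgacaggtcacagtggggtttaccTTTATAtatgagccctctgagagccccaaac
Tnp1, chr1:73015900-73016019, minus strand: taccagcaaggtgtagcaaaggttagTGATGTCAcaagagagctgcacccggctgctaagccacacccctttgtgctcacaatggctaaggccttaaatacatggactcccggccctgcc
Tnp2, chr16:10788656-10788775, minus strand: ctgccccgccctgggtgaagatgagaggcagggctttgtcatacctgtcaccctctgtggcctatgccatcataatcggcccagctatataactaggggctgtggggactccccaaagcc
H2al3, chrX:9849583-9849702, plus strand: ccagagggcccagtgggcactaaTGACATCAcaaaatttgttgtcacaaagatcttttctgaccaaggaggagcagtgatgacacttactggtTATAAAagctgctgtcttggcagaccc
Prss58, chr6:40900388-40900507, minus strand: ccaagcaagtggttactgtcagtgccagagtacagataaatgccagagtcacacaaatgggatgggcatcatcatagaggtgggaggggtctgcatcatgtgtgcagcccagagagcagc

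The members' depth and gate share were fixed by the rule and are given as a description. Members held 16001 to 135954 UMIs, with medians of 22157.5 and 20399. The gate genes took 10.0 to 31.2% of a member's UMIs, with medians of 23.6 and 24.1%, against a median of 5.41% over the whole table. The member with fewest UMIs had 16018 and 16001, and the nearest barcode of the same share outside the floor had 15995 and 15996. The lowest gate share inside the rule was 10.1 and 10.0%, and 183 barcodes of at least 16000 UMIs had shares of 5 to 10%. Among members 129 held more than 40000 UMIs. Barcode sequences shared between the suffixes numbered 73 in the table and 0 among members. Doublets were not removed. The marker part of the round spermatid gate described below was also passed by 960 members. That part includes Tssk1, which was found in members of every gate share, and Acrv1, which was highest in members of the lowest gate share. Whether the members that passed are doublets was not tested. Single members held most of the UMIs of 2 marker lists. Under suffix 1 a single member held 1867 of the members' 1936 UMIs of erythroid markers. Under suffix 2 a single member held 770 of their 862 UMIs of Leydig cell markers.

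Other sets were used for comparison. Protamine-rich barcodes that met the 10% share but held at least 8000 and under 16000 UMIs, called 8000 to 16000 UMIs below, numbered 3139, and those under 8000 UMIs numbered 2071. The round spermatid gate took 2887 barcodes of at least 16000 UMIs with the gate genes under 5%. It also required Acrv1, Spaca1, Tssk1 and Sun5 together to reach a set minimum and to exceed 5 spermatocyte genes together. Levels are UMI counts per 1000000 UMIs (CPM) outside the 4 gate genes, since the gate fixes their share. They are not scaled by transcript length, and levels of different genes are not compared.

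**Figure D1:**
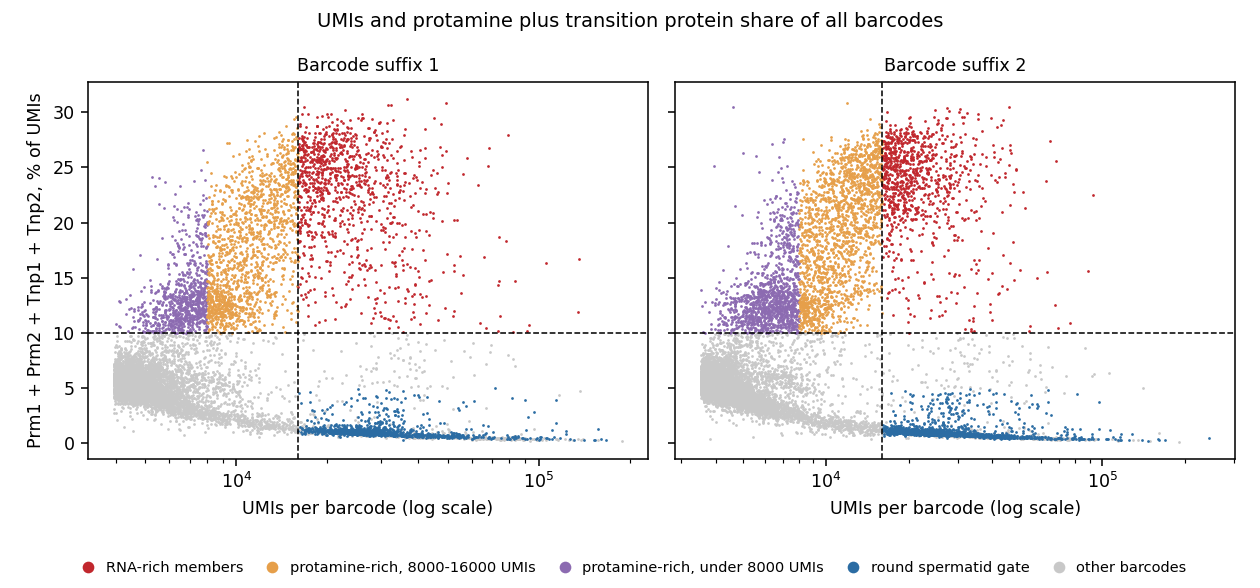
Each point is a barcode, placed by its UMIs (log axis) and by the share of its UMIs from Prm1, Prm2, Tnp1 and Tnp2, in 1 panel per suffix; dashed lines mark 16000 UMIs and 10%. The 1967 RNA-rich members fill the upper right, with 183 barcodes of at least 16000 UMIs at shares of 5 to 10%.

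Prm1, Tnp1 and Tnp2 took larger shares of UMIs in members than in protamine-rich barcodes below 8000 UMIs, and Prm2 a smaller share. The rule used the sum of these genes, so their single shares are given as a description. Prm1 took 8.86 and 9.21% of the members' UMIs, against 3.54 and 3.66% below 8000 UMIs. Tnp1 took 3.497 and 3.696% in members, against 1.18 and 1.19% below 8000 UMIs, and Tnp2 took 4.22 and 4.46%, against 1.34 and 1.35%. Prm2 ran the other way, with 5.28 and 5.61% in members and 7.45 and 7.66% below 8000 UMIs. In the round spermatid gate Prm1, the highest of the 4 genes there, took 0.418 and 0.401% of UMIs.

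The ratio of Tnp1 and Tnp2 to Prm1 and Prm2 UMIs fell into a low and a high mode across protamine-rich barcodes. Its median was 0.613 in members (quartiles 0.539 and 0.643), 0.320 at 8000 to 16000 UMIs and 0.117 below 8000 UMIs. A ratio under 0.2, a limit chosen after the values were seen, was found in 140 of 1967 members (7.12%, 95% interval 6.02 to 8.34%). It was found in 44.4% of barcodes of 8000 to 16000 UMIs and in 69.8% of those below 8000. The rule used the sum of these genes and not their ratio, but both come from the same counts.

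**Figure D2:**
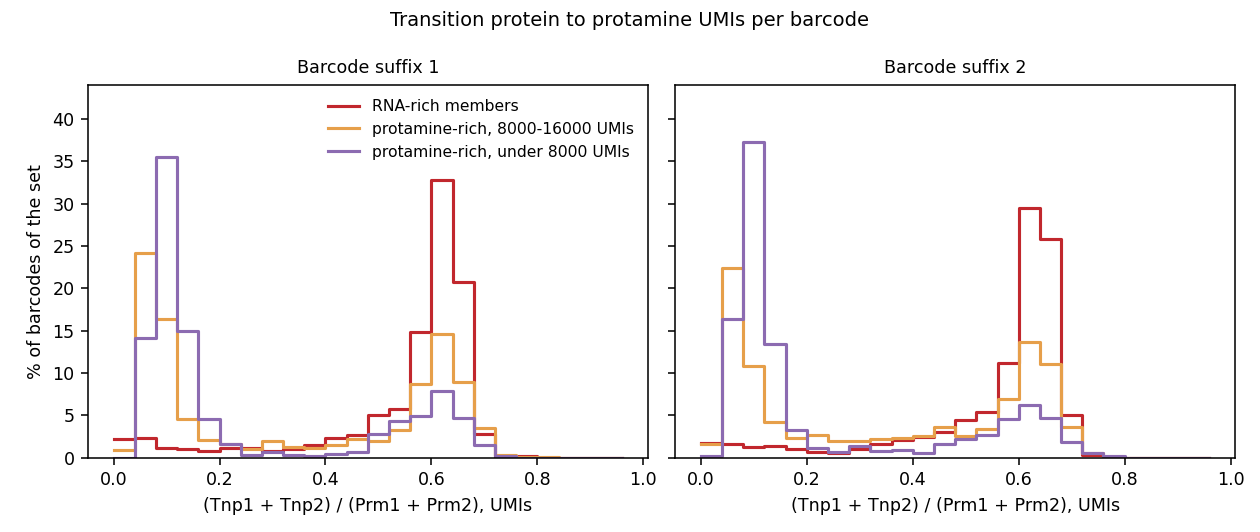
Share of barcodes (%) by the ratio of Tnp1 plus Tnp2 to Prm1 plus Prm2 UMIs in steps of 0.04, by set, 1 panel per suffix. Members stand mostly near their median of 0.613, and barcodes below 8000 UMIs mostly near 0.117.

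The 140 low-ratio members differed from the other members in more than the gate genes. Hmgb4, a testis-specific HMG box protein, was at 734 and 880 CPM in low-ratio members, against 5820 and 6223 CPM in the others. H2al3 was at 52.2 and 45.6 CPM in low-ratio members, against 557 and 573 CPM, and Hils1, a spermatid linker histone, was at 485 and 452 CPM, against 3049 and 2543 CPM. Smcp, a cysteine-rich protein of sperm mitochondria, ran the other way, at 14804 and 13852 CPM against 7697 and 8305 CPM. So did Tssk6, a spermatid serine kinase, at 3352 and 3303 CPM against 1809 and 1903 CPM. Low-ratio members held medians of 18213 and 18790 UMIs, against 22695 and 20549 UMIs in the others. The part of depth in these differences was not tested, nor whether each of these barcodes is a single cell.

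After the gate genes, the transcripts with the most UMIs in members were of several kinds, and counts are not scaled by transcript length. Smcp gave 0.650% of UMIs, Dbil5, an endozepine-like peptide, with 0.634%, and Meig1, a protein of the manchette, with 0.548%. Fabp9, a fatty acid binding protein of the sperm head, took 0.535%, Gsg1, a germ cell membrane protein, 0.498%, the glutathione transferase Gstm5 0.464% and Hmgb4 0.440%. The lactate dehydrogenase Ldhc took 0.436%, the outer dense fibre protein Odf2 0.402% and Gpx4, a selenoprotein of the mitochondrial sheath, 0.399%. Gapdhs, the sperm-specific glyceraldehyde-phosphate dehydrogenase, took 0.356%, and Eif1, a factor of start codon choice, 0.424%. After each barcode was thinned to 3000 UMIs the median number of genes detected was 1130 in members, against 1198 and 1303 in the protamine-rich barcodes of 8000 to 16000 and of under 8000 UMIs and 1711 in the round spermatid gate. The gate genes take part of those UMIs by the rule. With each barcode thinned instead to 1000 UMIs outside the gate genes, a setting added later, the medians were 645 in members, 645 and 655 in those protamine-rich sets and 767 in the round gate. Genes of the X chromosome gave 1.997% of members' UMIs outside the gate genes and 1.11% in the round spermatid gate.

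Against the round spermatid gate, which had the same floor of UMIs, most testis histone genes were higher in members and most acrosome, axoneme and germ granule genes lower. Median UMIs were 22157.5 and 20399 in members and 27802 and 25123.5 in the round gate. A gene was called when the sets differed by 1.5-fold or more under each suffix, with 1 direction for both, and the higher set reached 50 CPM and 50 UMIs under each. Of 4538 genes tested, 874 were higher in members (19.3%) and 2125 lower (46.8%). The median log2 ratio over all genes tested was -0.87 and -0.94. Centred on that shift (-0.82 over genes of at least 50 UMIs), 1370 genes were higher and 1382 lower, and over all UMIs as denominator 671 were higher and 2374 lower. Member barcodes held fewer UMIs outside the gate genes than round gate barcodes. The 2125 lower genes therefore had to have fewer UMIs per member barcode, and all did, which adds nothing to their calls. Of the 874 higher genes 821 had more UMIs per member barcode. A gene far enough above the 1.5-fold limit had to have more, so this count too adds little to the calls.

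The largest ratios among genes of at least 100 CPM were those of Odf3b, an outer dense fibre family gene, and Cby3, a chibby family gene. Odf3b was at 135 and 142 CPM in members, against 3.69 and 2.83 CPM in the round gate, a ratio of 36.6 and 50.3. Cby3 was at 330 and 350 CPM in members, against 10.0 and 8.99 CPM. Others were Cyp2a12, a cytochrome P450, at 168 and 193 CPM against 5.50 and 5.88 CPM, and the collagen gene Col20a1, at 461 and 513 CPM against 17.5 and 17.2 CPM. Klk1b8 and Defb33 were also among them, and both belong to multigene families whose reads the counting could split. The lowest ratios were those of Stambpl1, a deubiquitinating enzyme, at 10.3 and 9.11 CPM in members against 123 and 116 CPM in the round gate, and Zdhhc11, a palmitoyltransferase, at 9.92 and 12.1 CPM against 122 and 129 CPM. A call required the same direction under both suffixes, so the agreement of the suffixes in these genes was fixed by the rule.

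The label was set against marker lists. Of 20 elongating spermatid markers 17 were higher in members than in the round gate and 1, the X-linked Tsga8, was lower, with a median log2 ratio of 2.12 and 2.25. Of 11 round spermatid markers outside the round gate's own genes 3 were higher and 7 lower, and 9 of 9 spermatocyte markers were lower. The sum of all 15 round spermatid markers, with the round gate's own, was higher in members. It was at 9412 and 9422 CPM, against 6237 and 6126 CPM in the round gate. The elongating spermatid list summed to 43693.2 and 44693.2 CPM in members, against 12780.5 and 11968.8 CPM in the round gate. That sum was higher in the other protamine-rich sets, at 50130.5 and 49789.2 CPM in the deeper and 52063.4 and 53029.0 CPM in the shallower. These lists were written with earlier results known, so the counts and sums describe the sets. Cabs1, a calcium-binding protein of elongating spermatids, was at 2022 and 2035 CPM in members against 164 and 143 CPM in the round gate, and the carbonic anhydrase Car2 at 775 and 905 CPM against 35.7 and 48.3 CPM.

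Nuclear protein genes were mostly higher in members: of 11 testis histone and basic nuclear protein genes tested, 8 were higher and 3 lower than in the round gate, with a median log2 ratio of 2.75 and 3.05. H2al2a, an H2A-like histone, was at 2507 and 2616 CPM in members against 165 and 145 CPM in the round gate. H1fnt, a linker histone needed for condensation, was at 2537 and 2606 CPM against 358 and 277 CPM. H2al3 was at 526 and 539 CPM against 57.4 and 42.4 CPM, a ratio of 9.18 and 12.7. Prss58 was at 390 and 380 CPM against 21.8 and 19.5 CPM. The H2A-like genes H2al1m and H2al1n, which are X-linked, and H2al2a, which is not, have near-identical copies, so their single values are uncertain. The 3 lower genes encode replacement histones: H3f3b was at 368 and 375 CPM in members, against 1715 and 1679 CPM, and H3f3a and H2afz were also lower.

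Of 13 genes that act on chromatin 2 were higher and 5 lower, shares near those of all genes, and centred on the median 5 were higher and 4 lower. The acetyl-histone reader Brdt was at 42.1 and 40.2 CPM in members, against 139 and 138 CPM in the round gate. The deacetylase Hdac1 was at 29.3 and 31.5 CPM against 169 and 174 CPM, and the H3K79 methyltransferase Dot1l at 19.99 and 20.15 CPM against 110.1 and 97.50 CPM. The chromodomain genes Cdyl and Chd5 were the 2 higher ones, with Cdyl at 467 and 373 CPM against 146 and 104 CPM. Of 11 transcription regulators 1 was higher and 6 lower, or 4 and 5 when centred. Crem, the cAMP-responsive activator of spermatid genes, was at 138 and 134 CPM in members against 543 and 565 CPM in the round gate. Fhl5, its LIM domain partner, was higher instead, at 549 and 456 CPM against 277 and 225 CPM.

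Genes of the germ granule and of mRNA storage were mostly lower, with 3 higher and 14 lower of 19 tested and 0 higher and 6 lower of 6 piRNA pathway genes. Centred on the median, 4 were higher and 8 lower of the 19, and 0 higher and 4 lower of the 6. The RNA helicase Ddx4 was at 82.7 and 84.8 CPM in members against 429 and 411 CPM in the round gate, and the tudor protein gene Tdrd7 at 29.6 and 28.9 CPM against 176 and 178 CPM. The 3 genes that were higher without centring encode parts of or partners to cap-dependent translation. Eif4e, the cap-binding factor, was at 1273 and 1211 CPM in members against 159 and 153 CPM, a ratio of 7.98 and 7.92. Eif4g1, the scaffold of that complex, was at 128 and 109 CPM against 41.2 and 28.8 CPM, and Paip2, an inhibitor of poly(A)-binding protein, at 1460 and 1522 CPM against 572 and 548 CPM. Cytosolic ribosomal protein genes had a median log2 ratio of -0.02 and -0.00, above the median of all genes, and 1 of 46 was higher and 9 lower. Centred on the median this split turned round, to 27 higher and 1 lower.

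Acrosome and axoneme genes were lower. The round gate required a minimum of Acrv1, Spaca1, Tssk1 and Sun5 together. Leaving these genes out does not remove that choice for genes expressed along with them. Of 26 acrosome and fusion genes 1 was higher and 21 lower, and of 39 axoneme genes 2 were higher and 26 lower. Spam1, the sperm hyaluronidase, was at 20.1 and 22.4 CPM in members against 155 and 152 CPM in the round gate, and Tmem95, a sperm gene needed for fusion, at 6.30 and 7.64 CPM against 53.6 and 57.4 CPM. The exception, Izumo2, was at 684 and 660 CPM against 372 and 320 CPM. Tekt4, a tektin of the flagellum, was at 115 and 106 CPM in members against 705 and 727 CPM, and the axonemal dynein Dnah3 at 19.3 and 15.1 CPM against 131 and 111 CPM. Of 14 ion channel and cyclase genes 2 were higher and 9 lower. Among the lower ones the calcium channel gene Catsper3 was at 24.6 and 20.6 CPM against 156 and 159 CPM.

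Late tail structures split within families, and over all genes tested 19.3% were higher and 46.8% lower. Of 22 fibrous sheath and outer dense fibre genes 10 were higher and 8 lower. Akap4, the main anchoring protein of the fibrous sheath, was at 1849 and 1842 CPM in members against 410 and 353 CPM in the round gate. Fscn3, a testis fascin, was at 222 and 231 CPM against 15.7 and 15.6 CPM. Fsip1, Fsip2 and Akap14 of the same list were lower, with Fsip1 at 42.8 and 40.7 CPM against 367 and 382 CPM. Of 17 kinase and phosphatase genes 7 were higher and 7 lower, or 9 and 3 when centred. Tssk6 was at 1904 and 1995 CPM in members against 155 and 151 CPM, but Tssk4 at 61.4 and 49.5 CPM against 315 and 320 CPM. The type II regulatory subunit of protein kinase A, Prkar2a, was at 872 and 930 CPM in members against 56.0 and 54.1 CPM, while its type I counterpart Prkar1a was at 79.5 and 85.4 CPM against 375 and 417 CPM.

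Energy, autophagy and ubiquitin genes were called in both directions, as were all genes tested, with 19.3% higher and 46.8% lower. Centred on the median, 1370 of the 4538 genes tested were higher and 1382 lower. Of 21 sperm glycolysis genes 6 were higher and 7 lower, or 11 and 5 when centred on the median. Gpi1, glucose-6-phosphate isomerase, was at 705 and 796 CPM in members against 59.88 and 59.96 CPM in the round gate, and Gapdhs at 4451 and 4749 CPM against 871 and 777 CPM. The phosphofructokinase gene Pfkm was at 8.94 and 8.58 CPM against 51.1 and 56.5 CPM. Of 17 autophagy and cytoplasm genes 4 were higher and 6 lower, or 7 and 3 when centred. Gabarapl1, an ATG8 family gene, was at 2403 and 2498 CPM in members against 264 and 228 CPM, while its relatives Gabarapl2, at 20.6 and 21.9 CPM against 94.0 and 108 CPM, and Map1lc3b, at 50.5 and 46.4 CPM against 142 and 162 CPM, were lower. Spem1, a gene needed to shed spermatid cytoplasm, was at 694 and 720 CPM against 64.7 and 59.4 CPM. Of 29 ubiquitin and proteasome genes 6 were higher and 9 lower, or 12 and 4 when centred. The spermatid ubiquitin ligase Rnf133 was at 445 and 452 CPM against 63.7 and 50.2 CPM. Of 9 mitochondrially encoded genes 3 were lower, but mt-Co1 and mt-Co2 did not stay lower when ratios were centred on the median (log2 ratio -0.00 and 0.08).

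The other lists were mixed, beside the same 19.3% higher and 46.8% lower over all genes tested. Of 25 manchette and head shape genes 7 were higher and 10 lower, or 12 and 6 when centred. Of 18 genes of the mitochondrial sheath 7 were higher and 9 lower, or 9 and 8 when centred. Spata18, a gene of mitochondrial quality control, was at 1233 and 1324 CPM in members against 141 and 141 CPM in the round gate. Of 9 X and Y genes of spermatids 5 were higher and 3 lower. Of 2 miRNA silencing genes that could be tested, 0 were higher and 1 was lower, and mature miRNAs are not read by this assay.

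**Figure D3:**
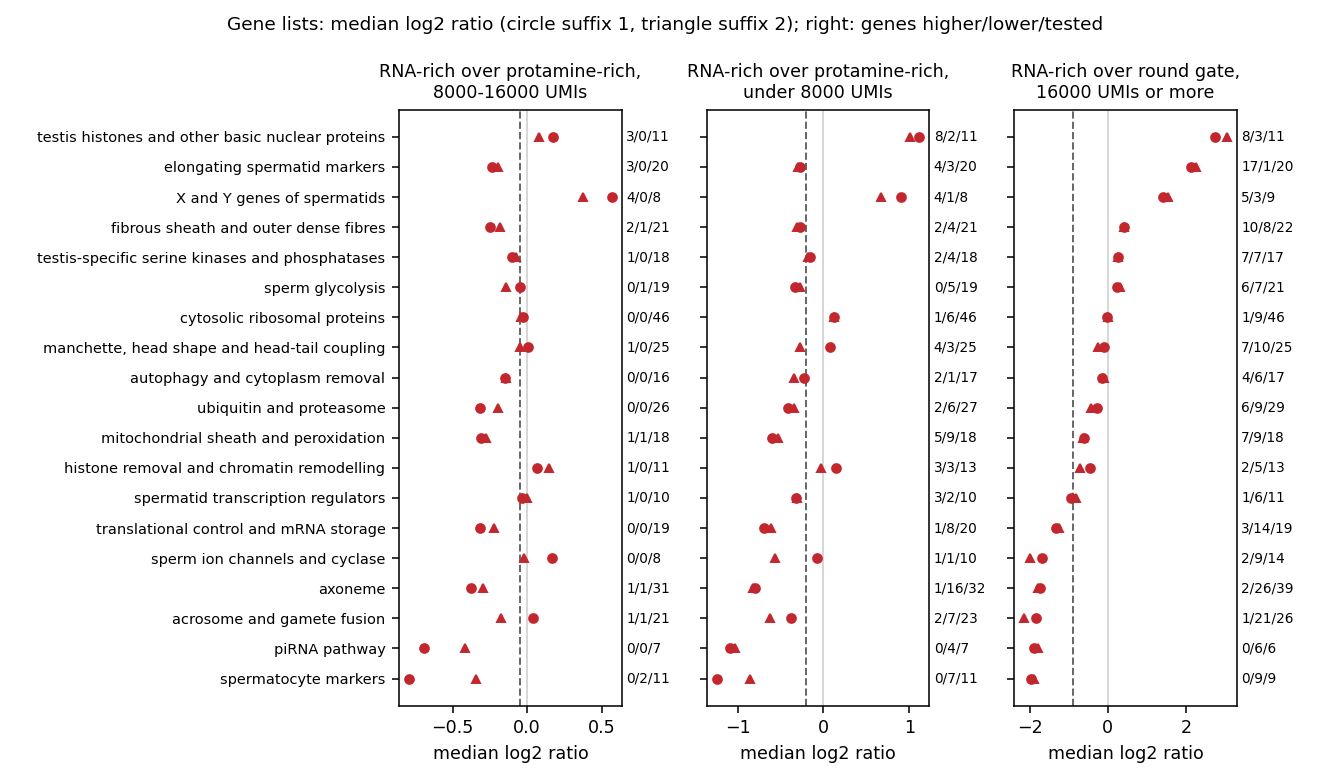
Median log2 ratio of each gene list (points, 1 per suffix) for members over each compared set; the dashed line is the mean of the medians over all genes tested under the suffixes, and the numbers give genes higher, lower and tested. Among the lists drawn, testis histones have the largest medians against the round gate (2.75 and 3.05), and piRNA genes stand left of the dashed line in all panels.

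Against protamine-rich barcodes below 8000 UMIs, most testis histone genes took a higher share in members. Of 3926 genes tested, 587 were higher in members (15%) and 760 lower (19.4%). Over all UMIs 398 were higher and 862 lower, and centred on the median ratio (-0.43) 1026 were higher and 196 lower. The sets differ in UMIs per barcode by the rule, so only shares are compared.

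The genes with the largest ratios were Tex37, a testis protein gene, at 1117 and 1203 CPM in members against 318 and 318 CPM below 8000 UMIs, and Cby3, at 330 and 350 CPM against 92.1 and 103 CPM. Hmgb4 was at 5506 and 5872 CPM in members against 1672 and 1676 CPM, and Cdc34, a ubiquitin-conjugating enzyme, at 2049 and 2045 CPM against 642 and 641 CPM. Of 11 testis histone and basic nuclear protein genes 8 were higher and 2 lower. With barcodes of a ratio under 0.2 left out of both sets, the higher genes of all lists together numbered 7 instead of 42. H2al3 and H1fnt kept the call. H2al3 was then at 557 and 573 CPM in members, against 300 and 356 CPM. H1fnt was then at 2567 and 2643 CPM, against 1707 and 1752 CPM, a log2 ratio of 0.59 and 0.59. With all barcodes kept, H2al3 was at 526 and 539 CPM in members, against 156 and 176 CPM, and H1fnt at 2537 and 2606 CPM, against 1033 and 1053 CPM. Also with all barcodes kept, Spata19, a protein of sperm mitochondria, was at 2010 and 2051 CPM in members, against 691 and 668 CPM, and Jund, an AP-1 subunit, at 402 and 373 CPM, against 138 and 133 CPM.

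Among genes of lower share, Smcp was at 8136 and 8669 CPM in members against 12783 and 13169 CPM below 8000 UMIs. Tssk6 was at 1904 and 1995 CPM in members, against 3332 and 3244 CPM, but with low-ratio barcodes left out of both sets its direction turned under at least 1 suffix (log2 ratio nearest to 0, 0.27). Lyar, a nucleolar protein gene, was at 550 and 618 CPM in members, against 1518 and 1431 CPM, and Slc2a3, the glucose transporter GLUT3, at 64.6 and 64.8 CPM, against 165 and 159 CPM. Of 32 axoneme genes 16 were lower and 1 higher, but 4 and 5 when centred on the median. Of 9 mitochondrially encoded genes 7 were lower and 0 higher, but 0 and 0 when centred. Eif4e, Akap4 and Gapdhs were not called, with Eif4e at 1273 and 1211 CPM in members against 1178 and 1200 CPM.

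Against protamine-rich barcodes of 8000 to 16000 UMIs fewer genes were called. Of 3729 genes tested, 210 were higher in members (5.63%) and 52 lower (1.39%). Over all UMIs 138 were higher and 87 lower, and centred on the median ratio (-0.15) 331 were higher and 6 lower. H2al3 was at 526 and 539 CPM in members against 255 and 280 CPM, a ratio of 2.07 and 1.93. Hils1 was at 2891 and 2405 CPM against 1554 and 1436 CPM, and Fam71f1, of a spermatid gene family, at 742 and 761 CPM against 361 and 373 CPM. Tuba8, an alpha-tubulin isotype, was at 253 and 174 CPM against 93.2 and 90.1 CPM, and Cdyl at 467 and 373 CPM against 235 and 216 CPM. Among the lower genes AY036118 and Gm42418 overlap ribosomal RNA repeats, so their counts may hold ribosomal RNA. Gm42418 was at 1021 and 1216 CPM in members, against 1911 and 2028 CPM. Zpbp2, a zona-binding acrosome protein, was at 68.5 and 87.5 CPM, against 127 and 138 CPM.

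Few genes were higher than in the protamine-rich sets once low-ratio barcodes were set aside. When barcodes with a ratio under 0.2 were left out of every set, a setting added once the data had been seen, 6 genes were higher in members than at 8000 to 16000 UMIs and 50 were lower. Against barcodes below 8000 UMIs 60 were higher and 825 lower, and against the round spermatid gate 875 were higher and 2110 lower. The 6 genes were Hemgn, Tuba8, Fam71b, Ccin, Usp46os1 and 4930511M06Rik. Ccin, the basic head protein calicin, was then at 191 and 110 CPM in members against 95.7 and 72.3 CPM. H2al3 missed the limit at a smaller log2 ratio of 0.44 against 8000 to 16000 UMIs, and met it below 8000 UMIs, at 557 and 573 CPM in members against 300 and 356 CPM. With members of at least 20% gate share 390 genes were lower than at 8000 to 16000 UMIs. The calls of Hemgn and Fam71b were then lost, with a log2 ratio below 0 under one suffix and 0.06 (Hemgn) and 0.05 (Fam71b) under the other.

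**Figure D4:**
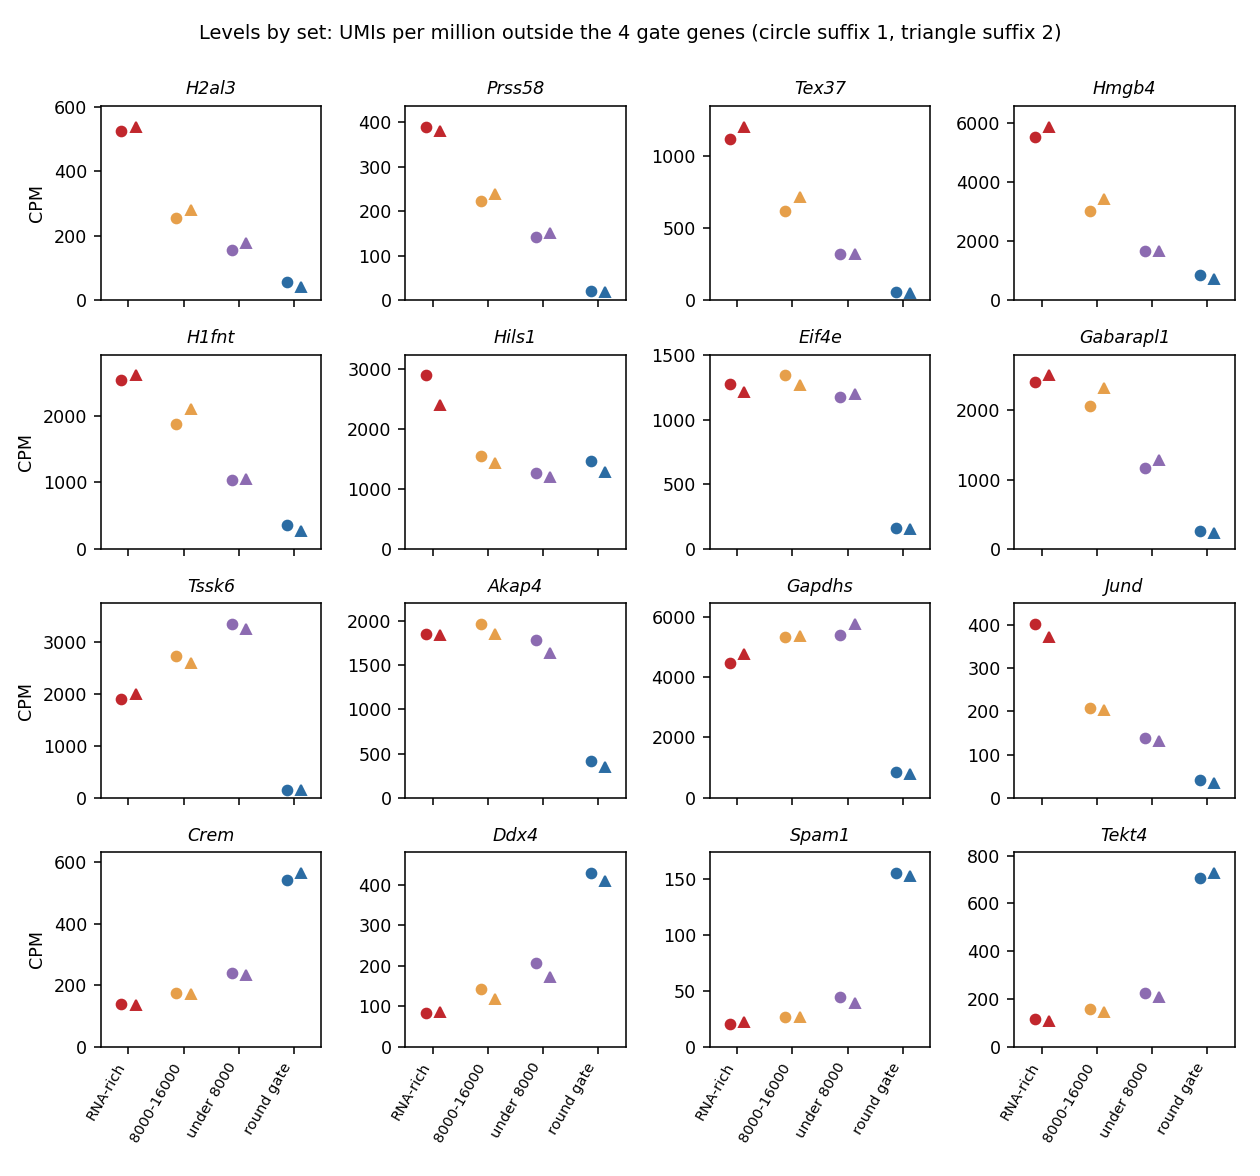
CPM of 16 genes in members and in each compared set, with the members leftmost; circles are suffix 1 and triangles suffix 2. H2al3, Prss58, Tex37, Hmgb4, H1fnt and Jund step down from members to the round gate. Eif4e, Akap4 and Gapdhs each differ by less than 1.5-fold between the protamine-rich sets, members included, and are low in the round gate.

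The members varied along the gate share, which was split at 15, 20 and 25%. From the lowest to the highest bin they numbered 96, 171, 395 and 360 under suffix 1 and 59, 90, 426 and 370 under suffix 2. The bins use the measure of the rule, and the ratios below are descriptions. The number of genes at 3000 UMIs ran 1455, 1297, 1156 and 1070 under suffix 1 and 1491, 1283, 1156 and 1067 under suffix 2. Thinned to 1000 UMIs outside the gate genes it ran 726.5, 692, 654 and 627 under suffix 1 and 732, 685, 652 and 626 under suffix 2. Median UMIs ran 30977, 23981, 21927 and 20921 under suffix 1 and 26385, 22141, 20291 and 20079 under suffix 2.

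A first set of genes was highest in members under 20% share. Acrv1, an acrosomal vesicle protein, ran 392, 138, 47.4 and 46.1 CPM over the bins under suffix 1 and 271, 101, 48.2 and 47.2 CPM under suffix 2. Gtsf1l, a relative of a piRNA pathway gene, ran 1470, 993, 199 and 153 CPM under suffix 1 and 697, 605, 177 and 132 CPM under suffix 2. Hemgn, a nuclear protein also known from blood cells, ran 625, 633, 109 and 46.3 CPM under suffix 1 and 292, 355, 92.7 and 39.3 CPM under suffix 2. The drop of Hemgn lay between the bins of 15 to 20% and 20 to 25%.

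A second set of genes was highest below 25% and lower above it. Cdyl ran 574, 700, 577 and 132 CPM under suffix 1 and 315, 552, 546 and 119 CPM under suffix 2. Tssk1, a spermatid serine kinase, ran 884, 894, 807 and 276 CPM under suffix 1 and 631, 721, 818 and 270 CPM under suffix 2. H2al3 ran 409, 482, 657 and 455 CPM under suffix 1 and 287, 403, 693 and 458 CPM under suffix 2, and Prss58 was likewise highest at 20 to 25%, at 469 and 478 CPM.

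Another set climbed to the highest bin. Hmgb4 ran 3197, 3968, 5913 and 7140 CPM under suffix 1 and 2762, 3659, 5975 and 7255 CPM under suffix 2. Tex37 ran 605, 813, 1227 and 1433 CPM under suffix 1 and 512, 754, 1260 and 1456 CPM under suffix 2. Gabarapl1 ran 1450, 1978, 2541 and 2980 CPM under suffix 1 and 1395, 1981, 2501 and 2946 CPM under suffix 2. The share of low-ratio members was 18.8 and 25.4% at 10 to 15%, 21.1 and 25.6% at 15 to 20%, 5.06 and 5.87% at 20 to 25% and 0.278 and 0.541% above. The part of these low-ratio members in the trends was not tested.

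**Figure D5:**
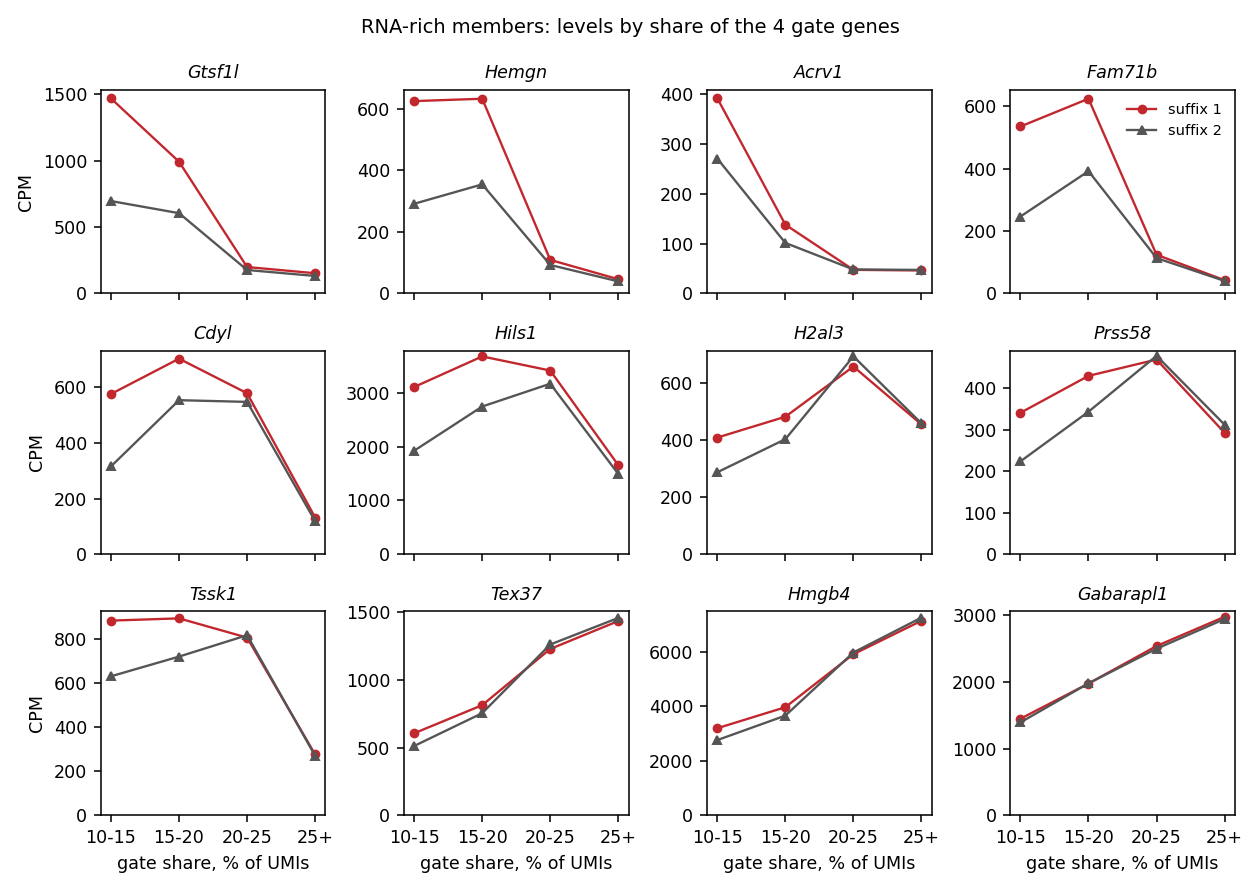
CPM of 12 genes in members binned by gate share (% of UMIs), 1 line per suffix. Gtsf1l, Hemgn, Acrv1 and Fam71b are highest below 20%, Cdyl, Hils1, H2al3, Prss58 and Tssk1 drop in the bin of 25% and above, and Tex37, Hmgb4 and Gabarapl1 climb throughout.

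Under the suffixes the members differed in their low-share part. Of 3748 genes tested, 82 were at least 1.5-fold higher under suffix 1 and 0 under suffix 2. The leading gene was 1700101O22Rik, at 197 CPM under suffix 1 and 84.4 CPM under suffix 2, and Hemgn was at 267 CPM and 122 CPM. Cyp51, a sterol demethylase of cholesterol synthesis, was at 86.6 CPM and 41.3 CPM. Members under 20% gate share made up 9.39 and 16.7% of members under suffix 1 in the lower and the upper of these bins, and 6.24 and 9.52% under suffix 2. With members of at least 20% share only, 1 gene was higher under suffix 1 and 0 under suffix 2. With members above 40000 UMIs left out, 30 were higher under suffix 1. Among members under 20% share 235 were higher under suffix 1 and 242 under suffix 2, over few barcodes. The same limit gave 0 and 1 genes in barcodes of 8000 to 16000 UMIs, 7 and 1 below 8000 UMIs and 2 and 1 in the round gate. These are differences between libraries of unknown genotype, with no replicate.

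Transcripts named for other cell types were low in members, with exceptions in single genes. The macrophage list gave 171 and 191 CPM in members, against 22.1 and 22.4 CPM in the round gate. It was higher in the other protamine-rich sets. It gave 247.5 and 266 CPM below 8000 UMIs, and 242 and 249.4 CPM between 8000 UMIs and the members' floor. Among members Apoe, an apolipoprotein, made up 2694 of the list's 3506 UMIs under suffix 1 and 2383 of 3248 under suffix 2. Apoe itself was at 132 and 140 CPM. C1qb, a complement subunit, gave 33.1 and 39.7 CPM, while its partner subunits C1qa and C1qc gave 0.782 and 1.116 CPM and 0.733 and 1.06 CPM, and the macrophage receptor Csf1r 0.0977 and 0.176 CPM. Cd3d, a T cell receptor chain, was at 83.0 and 79.7 CPM in members against 15.4 and 15.7 CPM in the round gate, while Cd3e was at 0.0489 and 0.0587 CPM. Apoe and Cd3d climbed with gate share, with Cd3d at 51.9 and 46.9 CPM in the lowest bin and 109 and 99.4 CPM in the highest. Apoe was at 207 and 219 CPM below 8000 UMIs, but with low-ratio barcodes left out of both sets that direction turned under at least 1 suffix (log2 ratio of members to this set nearest to 0, 0.26). The Sertoli cell list gave 76.8 and 62.7 CPM in members against 29.1 and 27.0 CPM in the round gate. That list too was higher in the other protamine-rich sets. It gave 314.5 and 198.6 CPM below 8000 UMIs, and 135.7 and 128.1 CPM between 8000 UMIs and the members' floor. The spermatocyte list gave 605 and 645 CPM in members against 1926 and 2041 CPM in the round gate. Spermatocyte markers were at 862 and 1544 CPM in members of 10 to 15% share. The part of other cells in these levels was not tested.

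The letters TGANNTCA in the 120 bases before the start were more frequent among genes higher in members than among genes lower. This motif was chosen after the promoters had been seen, both strands were searched, and it overlaps TGACGTCA. Of all 27025 genes with a promoter sequence 8.23% held it. Against the round gate it was held by 22.9% of the 685 higher genes with a sequence, 8.84% of the 1686 lower and 11.7% of the 3578 tested. Against barcodes of 8000 to 16000 UMIs it was held by 52 of 165 higher genes (31.5%), 0 of 43 lower genes and 12.7% of those tested. Against barcodes below 8000 UMIs the shares were 22.6% of higher, 7.60% of lower and 12.3% of tested genes.

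The share differed between central letters. TGACATCA, which reads TGATGTCA on the other strand, was held by 9.93% of genes higher than in the round gate and 3.03% of those lower, and TGACCTCA, which reads TGAGGTCA, by 6.13 and 1.42%. TGACGTCA itself was held by 3.36% of higher and 2.85% of lower genes. TATAAA was held by 4.09% of higher and 3.26% of lower genes, against 7.45% of all promoters. Among the genes shown above, Prm1 held TGACTTCA, Tnp1 TGATGTCA and H2al3 TGACATCA, and the windows of Prm2, Tnp2 and Prss58 held no TGANNTCA. Genes with the motif among those higher than at 8000 to 16000 UMIs included Hmgb4, Akap3, Ropn1, Tssk1, Fhl5, Jund and Spag4. A match describes letters and not binding.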

How the data were processed

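The deposited table holds UMI counts, which the authors did not normalise, as the whole numbers and unequal totals in the table show. Build GRCm38, Seurat 3.2.2 and Cell Ranger 1.3.1 are listed, with no role, in the submitters' processing notes. How barcodes were filtered before deposit: not given in the sources used here. All 20476 genes and 28245 barcodes were used, 0 columns were left out and no doublet caller was run. Symbols were matched to GENCODE positions on GRCm38, which gave 20095 of 20476 genes a position.

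Members, gene lists and compared sets were chosen with earlier results of these data known. The round spermatid gate was defined here. UMIs were summed over the barcodes of a set under each suffix. A gene was tested with a mean of at least 25 CPM in the compared sets under both suffixes, and the gate genes, and for the round gate its own 9 genes, were left out of the counts. A gene at 0 was set at 3 counts. Levels have exact Poisson, ratios exact conditional binomial and shares Clopper-Pearson 95% intervals, which cover counting error only. Depth was 158740437 UMIs under suffix 1 and 168967776 under suffix 2.

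The genes named are the gate genes and given markers, the most abundant transcripts, the 10 highest and 10 lowest ratios of each comparison, and 2 to 4 members of each list. Only part of these are printed. Others, such as family members set against a named gene, were chosen after their values were seen. The sums and calls were tested on simulated data. Python 3.11.15, numpy 2.4.6, scipy 1.17.1 and matplotlib 3.10.9 were used.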

Additional observations from a re-analysis of the deposited data

How the results depend on the processing

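No paired analysis was possible because each genotype has 1 library and no replicate numbers; for the same reason no replicate could be left out. Of 2629 values of named genes under 11 alternatives, 2419 kept their call and direction, 201 kept direction in both suffixes and lost the call, and 9 changed sign under at least one suffix. These 9, as the log2 ratio nearest to 0, were Hemgn 0.06 and Fam71b 0.05 (8000 to 16000 UMIs, share of 20%), Hbb-bs 0.45 (8000 to 16000 UMIs, ratio of 0.2 or more), mt-Co1 -0.00 and mt-Co2 0.08 (round gate, centred), and Aldoa 0.21, Apoe 0.26, Tpi1 0.01 and Tssk6 0.27 (under 8000 UMIs, ratio of 0.2 or more). Against 8000 to 16000 UMIs, genes higher numbered 138 over all UMIs, 331 centred, 1 at 2-fold, 379 at 10 CPM and 20 UMIs and 6 with a ratio of 0.2 or more. Genes lower numbered 87 over all UMIs, 6 centred, 1 at 2-fold, 219 at 10 CPM, 83 with a floor of 20000, 282 and 390 with shares of 15 and 20%, 102 as means over barcodes and 260 without the barcodes richest in other markers. Against under 8000 UMIs, genes higher numbered 1026 centred, 259 at 2-fold, 926 at 10 CPM and 60 with a ratio of 0.2 or more, and genes lower 196, 223 and 2298 centred, at 2-fold and at 10 CPM. Against the round gate, genes higher numbered 1370 centred and 1427 at 10 CPM, and genes lower 1382 and 4601. The CPM limit also set which genes were tested, so counts at 10 CPM rest on more genes than the main counts and their shares are not given. Over all UMIs the genes tested numbered 3271 against 8000 to 16000 UMIs, 3534 against under 8000 UMIs and 4354 against the round gate. Listed genes higher than at 8000 to 16000 UMIs numbered 32 centred, 0 at 2-fold and 2 with a ratio of 0.2 or more. Listed genes lower numbered 14 over all UMIs, 1 centred, 0 at 2-fold, 23 at 10 CPM, 43 and 60 with shares of 15 and 20%, 15 as means over barcodes, 38 without the barcodes richest in other markers and 5 with a ratio of 0.2 or more. Against under 8000 UMIs, listed genes higher numbered 95 centred, 22 at 2-fold and 7 with a ratio of 0.2 or more, and lower 28 centred, 31 at 2-fold and 160 at 10 CPM. Against the round gate they were 138 higher and 107 lower when centred. Genes higher under suffix 1 among members numbered 30 without members above 40000 UMIs, 18 at 15% share and 1 at 20%, and 2 were higher under suffix 2 with a floor of 20000. Floors of 12000 and 20000 gave 3132 and 1150 members. The cause of these changes was not tested. The settings of 20% share, of a ratio of 0.2 or more and of thinning outside the gate genes were chosen after seeing the data.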
